A study of Mus musculus with 20 samples.

Results

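Gene expression in brains of the mouse line labelled J17a was set against brains labelled Wild type. The 3 J17a and 3 Wild type libraries were chosen by genotype label from 20 libraries in 7 genotype groups. All 6 are labelled brain and strain C57/Bl6J, and the series describes knockouts of single isoforms and their controls, kept on a normal diet and read for exon use. All 16063 genes with enough counts to test were compared, out of 23845 listed. The labels spell out neither the code J17a nor whether the form it names was removed or kept. They give no age, sex, founder line, Cre driver or other allele for either group. Whether the 3 libraries of a genotype represent different mice is also unstated. The p-values therefore refer to library-to-library spread alone, which may be technical.

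The c-Jun N-terminal kinases (JNKs) are stress-activated kinases. Kinases such as MKK4 and MKK7, encoded by Map2k4 and Map2k7, phosphorylate them, scaffold proteins assemble the cascade, and dual-specificity phosphatases switch it off. Their substrates include the transcription factor Jun and proteins of the neuronal cytoskeleton. In mouse brain, JNK1 (Mapk8) is known for its part in axon and dendrite structure, while JNK3 (Mapk10) is the form most restricted to neurons.

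Mapk8 lies on chromosome 14 from 33377898 to 33447158 (mm10, minus strand). Part of its kinase domain is encoded by alternative exons, of which a transcript holds either one or the other. The pair is shown because the codes J17a and J17b appear to refer to it, which the labels do not spell out. Both exons are 72 bases long, and each is exon 7 of 12 in 2 annotated protein-coding transcripts (GENCODE mouse M21, mm10). They lie at chr14:33390673-33390744 and chr14:33390242-33390313. Capitals mark the 27 positions at which they differ, with 45 bases shared. The sources used here do not say which exon is called 7a and which 7b.
First of the pair: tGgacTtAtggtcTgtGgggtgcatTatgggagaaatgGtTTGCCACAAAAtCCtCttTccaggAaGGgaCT
Second of the pair: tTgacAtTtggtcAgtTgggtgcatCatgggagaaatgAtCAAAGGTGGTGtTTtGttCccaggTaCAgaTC
The deposited values are totals per gene, so use of these exons was not analysed here.

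Some libraries stood apart in ways the genotype labels do not describe. The J17a libraries held 29214298 to 29941793 estimated counts and the Wild type libraries 24736263 to 33828755. J17a replicate 1 was closer to Wild type replicates 1 and 2 (median absolute log2 difference over 13089 genes 0.0965 and 0.0975) than to J17a replicates 2 and 3 (0.166 and 0.112). Wild type replicate 3 differed from Wild type replicates 1 and 2 by 0.258 and 0.27, against 0.0912 between those 2. Sorted by transcript GC content into 4 equal classes, its genes of the lowest class had a median deviation of 0.23 from the 6-library median (log2) and those of the highest class -0.30. J17a replicate 2 had a trend of the same sign (0.09 and -0.13). Wild type replicate 2 carried anterior pituitary transcripts. The summed level of 10 pituitary genes was 7598 TPM there, 1.51 to 78.2 TPM in J17a and 9.62 and 36.6 TPM in the other two Wild type libraries. Defining markers of neurons, astrocytes, oligodendrocytes and microglia were present in all 6 libraries, and Alb, the liver albumin gene, was at 0 counts in all 3 J17a libraries and at 1 count in a single Wild type library.

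Total expression of the 3 JNK genes was close in J17a and Wild type brains. Mapk8 was at 106, 116 and 106 CPM in J17a replicates 1 to 3, against 118, 109 and 140.4 CPM in Wild type. The groups overlapped, and the highest value was that of Wild type replicate 3. Mapk8 averaged 109.5 ± 5.79 CPM in J17a and 122 ± 16.2 CPM in Wild type (SD, n = 3 each), with a log2 fold change of -0.16 (95% interval -0.35 to 0.03, edgeR adjusted p = 0.993) that was -0.05 without Wild type replicate 3. Mapk9, which encodes JNK2, averaged 309 ± 13.5 CPM in J17a and 319 ± 36.3 CPM in Wild type (SD, n = 3 each), a log2 fold change of -0.04 (95% interval -0.61 to 0.52). Mapk10 averaged 380.4 ± 25.2 CPM in J17a and 387 ± 5.37 CPM in Wild type (SD, n = 3 each), a log2 fold change of -0.02 (95% interval -0.16 to 0.11). The interval for Mapk9 was the widest of the 3 and did not lie inside a 1.5-fold change, while those of Mapk8 and Mapk10 did. The fit takes its spread from all groups of the series, not from J17a and Wild type alone. In J2 lf/lf, Mapk9 ran from 58.1 to 177 CPM (SD 67.1, n = 3). Corrected for transcript length, the JNK genes ranked alike in both groups, with Mapk9 at 162 TPM in J17a and 169 TPM in Wild type, Mapk10 at 126 and 130 TPM and Mapk8 at 46.1 and 52.0 TPM.

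**Figure D1:**
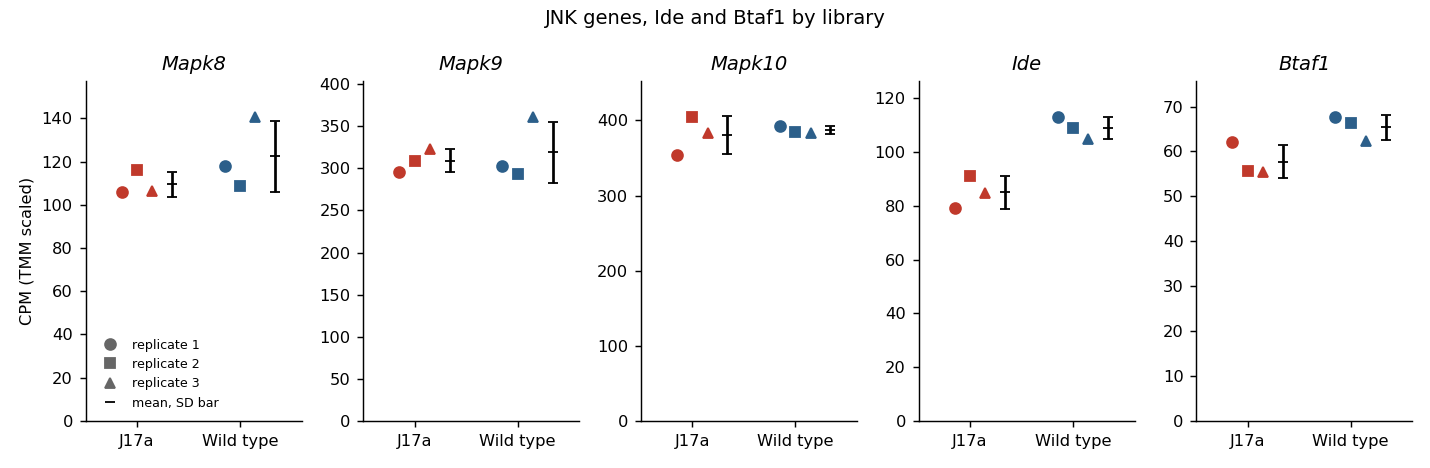
CPM (TMM scaled) of Mapk8, Mapk9, Mapk10, Ide and Btaf1 in each J17a (left) and Wild type (right) library, with group mean and SD bar (n = 3 each); axes start at 0. The JNK genes overlap between groups, while Ide lies at 79.1 to 91.1 CPM in J17a and 105 to 113 CPM in Wild type.

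Kinases, scaffolds and cytoskeletal substrates of the JNK pathway were close in J17a and Wild type, while phosphatases and AP-1 and ATF factors were less closely bounded. Of all tested genes, 69.8% had a 95% interval that lay wholly inside a 1.5-fold change either way, and 49.6% had a positive log2 fold change. Among 16 kinases upstream of JNK all 16 were inside 1.5-fold, 11 were positive, and the median log2 fold change was 0.02, against -0.0014 over all genes. Map2k4 was at -0.13 (95% interval -0.31 to 0.05) and Map2k7 at 0.07 (-0.09 to 0.23). The lowest log2 fold changes among them were those of Map3k4 (-0.16, unadjusted p = 0.033) and Map3k5, which encodes the stress kinase ASK1. Map3k5 was at 47.3, 44.8 and 44.3 CPM in J17a and 50.01, 51.1 and 51.3 CPM in Wild type. All J17a values lay below all Wild type values, with a log2 fold change of -0.16 (95% interval -0.33 to 0.01) and an edgeR adjusted p of 0.993. All 8 scaffolds were inside 1.5-fold, from Arrb2 at -0.08 to Mapk8ip1, which encodes JIP1, at 0.15. Of the 12 neuronal cytoskeleton substrates all 12 were inside 1.5-fold, among them Map1b at 0.00, Map2 at 0.04, Mapt at -0.03, Dcx at -0.04 and Stmn2 at -0.12. These 3 lists hold no gene below 8 CPM, and over all genes the share inside 1.5-fold was 93.7% from 8 to 64 CPM and 98.1% above 64 CPM, so their counts are near that share. The highest log2 fold change among the listed substrates was that of Nefh, the heavy neurofilament subunit, at 0.26 (95% interval -0.02 to 0.54). The neurofilament genes Nefm and Nefl are not in this list. Nefm was at 0.42 (0.12 to 0.72), not inside 1.5-fold, and Nefl at 0.26 (0.07 to 0.44), inside it. Of 6 JNK phosphatases 4 were inside 1.5-fold, and Dusp1 and Dusp2, at 0.28 and -0.28, were not. Dusp2 and 2 of the 11 tested AP-1 and ATF factors lay below 1 CPM, where 0% of all genes were inside 1.5-fold.

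Across all genes edgeR called 0 of 16063 at an adjusted p under 0.05, with a smallest adjusted p of 0.899. DESeq2 called 1 and limma on TPM called 0. At an unadjusted p under 0.05 there were 705 genes (4.39%), 350 higher in J17a (2.18%) and 355 lower (2.21%), where 803 would be reached with no difference at all. All 3 J17a libraries lay above all 3 Wild type libraries in 557 genes (3.47%) and below them in 492 (3.06%). A log2 fold change of -0.42 to 0.45 covered the 5th to the 95th percentile of genes. The ranked genes below are a description of the top of the list, and except where a call is stated they did not pass the test.

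**Figure D2:**
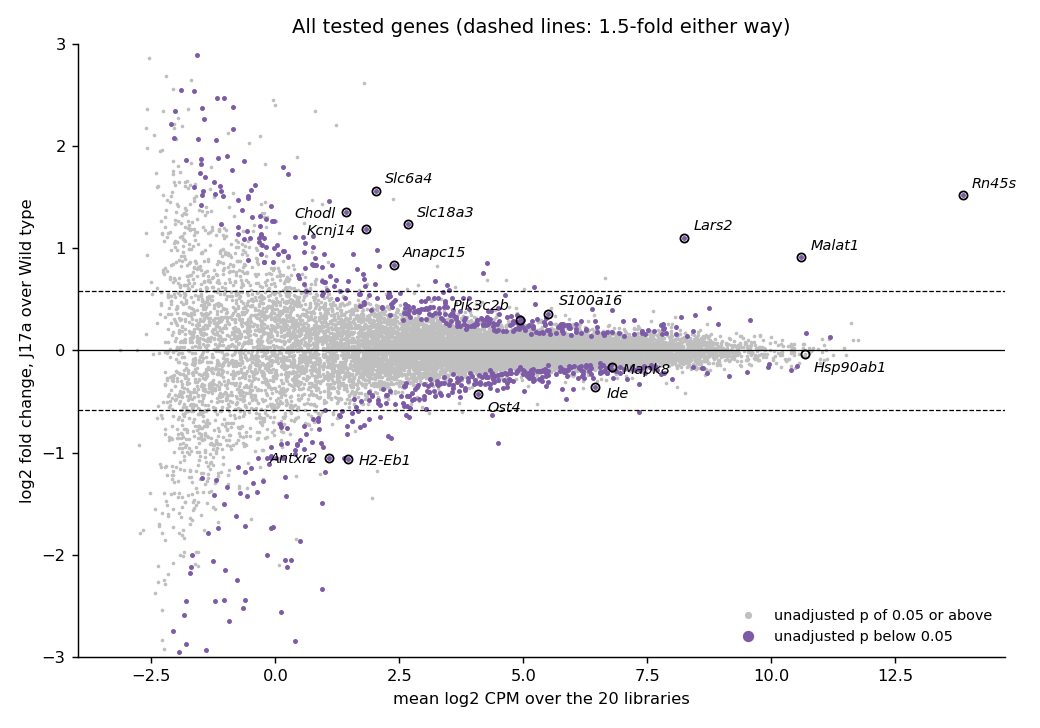
Log2 fold change of J17a over Wild type against mean log2 CPM over the 20 libraries for the tested genes, with unadjusted p below 0.05 in purple, named genes circled and dashed lines at 1.5-fold; 41 genes lie beyond the axis limit of 3. Scatter narrows with expression, and no gene had an adjusted p under 0.05.

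The gene with the smallest p was Slc18a3, the vesicular acetylcholine transporter that loads acetylcholine into synaptic vesicles. It was at 11.6, 6.13 and 13.4 CPM in J17a and 3.75, 5.32 and 4.08 CPM in Wild type. Every J17a library was above every Wild type library, though J17a replicate 2 exceeded Wild type replicate 2 only narrowly. Slc18a3 was 2.35-fold higher in J17a (log2 fold change 1.23, SE 0.26, unadjusted p = 0.000124, edgeR adjusted p = 0.899). DESeq2 called it (adjusted p = 0.0465), and so did edgeR without J17a replicate 2 (log2 fold change 1.51, adjusted p = 0.0447), while over all alternatives its adjusted p ran from 0.0447 to 1. In the 14 libraries of the other lines it ran from 3.05 to 10.03 CPM, so J17a replicates 1 and 3 were the highest of all 20 libraries and J17a replicate 2 ranked 10 of 20.

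Slc18a3 lies on chromosome 14 from 32462438 to 32464850 (mm10, minus strand), inside Chat and on the same strand, 913048 bases from the near end of Mapk8. Chat encodes choline acetyltransferase, which makes acetylcholine. It was at 10.1, 4.86 and 11.1 CPM in J17a and 5.08, 8.25 and 8.21 CPM in Wild type, with overlapping groups and a log2 fold change of 0.27 (95% interval -0.25 to 0.79). Reads from overlapping genes on the same strand can be shared by likelihood, so the split between these genes is uncertain. Within 2 Mb of Mapk8, 36 genes were tested, and 21 were positive with a median log2 fold change of 0.04. An unadjusted p under 0.05 was found in 4 of the 36, against 4.39% of all tested genes and 3.2% of those on chromosome 14. The 4 were Slc18a3, Eaf1 (0.19), Vstm4 (0.29) and Wdfy4 (0.60).

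Other cholinergic and motor neuron genes were looked at after these values were seen. Slc5a7, the high-affinity choline transporter, was at 30.7, 19.1 and 33.0 CPM in J17a and 11.1, 15.1 and 23.1 CPM in Wild type. J17a replicates 1 and 3 were the highest of the 6, and J17a replicate 2 lay among Wild type. Its log2 fold change was 0.76 (95% interval 0.26 to 1.25, edgeR adjusted p = 0.993), and it was called (1.28, adjusted p = 0.0416) with both J17a replicate 2 and Wild type replicate 3 left out, an alternative chosen after seeing the data. Chodl, a motor neuron marker in mouse, was at 3.39, 1.92 and 4.77 CPM in J17a and 1.399, 0.77 and 1.82 CPM in Wild type (log2 fold change 1.35, SE 0.39). Chodl means in the other lines ran from 1.84 CPM in J2 lf/lf to 3.76 CPM in J17b. Ache, the acetylcholinesterase gene, was at 0.12 (95% interval -0.05 to 0.29) and Isl1, a motor neuron transcription factor, at -0.02 (-0.66 to 0.63). The list of these genes also holds Slc18a3 itself, beside Slc5a7 and Chodl. Of the 9 tested members 8 were positive, 0 were called, and the median log2 fold change was 0.76. An unadjusted p under 0.05 was reached by 5, against 4.39% of all genes. Since values of members were seen before the list was made, these counts are a description and no test. The log2 fold change farthest from 0 was that of Tbx20, a transcription factor of hindbrain motor neurons, at 2.47. Tbx20 was at 0.47, 0.55 and 1.10 CPM in J17a and 0.20, 0.12 and 0.04 CPM in Wild type, which is little RNA in every library.

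The remaining genes of smallest p were mostly small differences in well-measured genes or larger ones at low levels. Anapc15, a subunit of the anaphase-promoting complex, was at 5.42, 8.28 and 5.15 CPM in J17a and 3.92, 3.49 and 3.09 CPM in Wild type (0.84 on the log2 scale, SE 0.18, edgeR adjusted p = 0.899, unadjusted p = 0.000144). It overlaps Folr1 and Tomt on the opposite strand, and whether reads were assigned by strand is unknown here. Kcnj14, an inwardly rectifying potassium channel subunit, was at 5.15, 5.20 and 6.55 CPM in J17a and 2.63, 3.10 and 1.62 CPM in Wild type, a log2 fold change of 1.19 (SE 0.29). In both genes the groups were clear of each other.

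Several signalling genes followed. Pik3c2b, a class II phosphoinositide 3-kinase, was at 35.4, 33.99 and 35.3 CPM in J17a and 28.8, 27.3 and 29.3 CPM in Wild type (log2 fold change 0.29, SE 0.08). Pik3r5, a regulatory subunit of phosphoinositide 3-kinase gamma, was at 3.06, 3.15 and 4.32 CPM in J17a and 1.91, 2.19 and 1.35 CPM in Wild type (0.94, SE 0.25). Gng11, a G protein gamma subunit, was at 11.03, 14.1 and 12.4 CPM in J17a and 9.28, 8.78 and 7.14 CPM in Wild type (0.57, SE 0.15). Each had all J17a libraries above all Wild type libraries, and in Pik3r5 and Gng11 Wild type replicate 3 was the lowest.

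Among structural and regulatory genes, S100a16, an EF-hand calcium-binding protein, was at 47.1, 57.2 and 49.4 CPM in J17a and 42.1, 43.4 and 34.3 CPM in Wild type (log2 fold change 0.36, SE 0.09). Sox8, a transcription factor of the oligodendrocyte lineage, was at 49.9, 50.9 and 50.8 CPM in J17a and 39.98, 46.6 and 35.3 CPM in Wild type (0.31, SE 0.09). Pcdhb8, a clustered protocadherin, was at 0.75 (SE 0.20) and overlaps the annotated genes Gm42416, Gm37013 and Gm37388 on the same strand. Pcdhb8 averaged 3.65 CPM in J17a and 2.16 CPM in Wild type, and from 3.10 CPM (J2 lf/lf) to 3.91 CPM (J27b) in the other lines. Ost4, a small subunit of the oligosaccharyltransferase complex, was at 13.9, 13.04 and 16.1 CPM in J17a and 17.3, 20.4 and 19.98 CPM in Wild type (-0.42, SE 0.12) and overlaps Agbl5 on the opposite strand. The predicted gene G530011O06Rik was at -1.05 (SE 0.29). All 5 had edgeR adjusted p = 0.993.

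**Figure D3:**
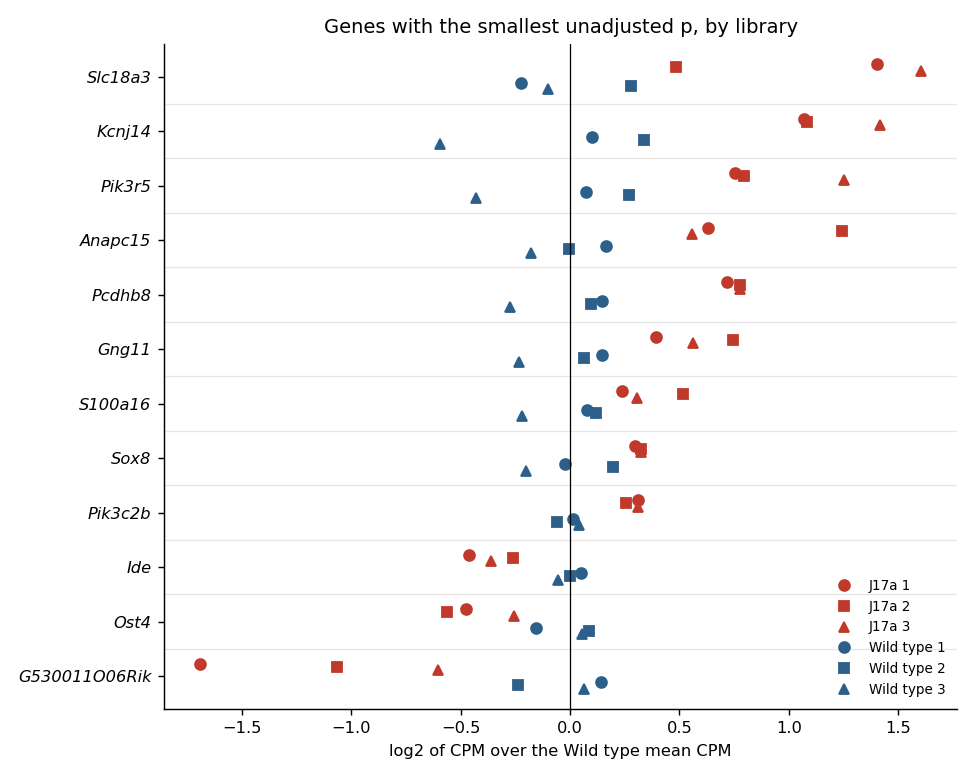
Log2 of CPM over the Wild type mean CPM for the 12 genes of smallest unadjusted p (mean log2 CPM of at least 1), with J17a libraries in red above Wild type libraries in blue and 1 symbol per replicate. The genes were picked for this separation, and Slc18a3 shows the widest spread among J17a libraries, with replicate 2 nearest to Wild type.

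Ide, which encodes the insulin-degrading enzyme, was lower in J17a at a well-measured level. It was at 79.1, 91.1 and 84.9 CPM in J17a and 113, 109 and 105 CPM in Wild type, without overlap. Its edgeR estimate was -0.36 (SE 0.09, adjusted p = 0.993, unadjusted p = 0.000885), and leaving out each library in turn gave -0.41 to -0.31. The values of the other lines bracket J17a, with group means from 55.7 CPM in J1 lf/lf to 109 CPM in J27b. Ide lies on chromosome 19 from 37268743 to 37337852 (mm10). Of its neighbours, Fgfbp3, a carrier of fibroblast growth factors, was at -0.47 (SE 0.20, unadjusted p = 0.0295). A copy number variant that covers Ide and Fgfbp3 is known in C57BL/6J colonies, and whether these samples differ in it was not tested. Btaf1, an ATPase that acts on the TATA-binding protein, was at 62.0, 55.7 and 55.5 CPM in J17a and 67.6, 66.4 and 62.2 CPM in Wild type (-0.18, 95% interval -0.39 to 0.03), just clear of overlap. Cpeb3 and March5, which lie between Btaf1 and Ide, were at 0.06 and -0.07. Over the 26 genes tested within 2 Mb of Ide the median log2 fold change was 0.06, with 16 positive. Ide also stands in a list of 5 genes known to differ between C57BL/6 colonies, where Nnt was at 0.15 (95% interval -0.08 to 0.39), Wdfy1 at -0.23 (-0.46 to 0.01) and Entpd4 at -0.16 (-0.33 to 0.02).

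The largest positive differences among genes with separated groups and a mean log2 CPM of at least 1 lay at low expression or in transcripts that varied widely between libraries. Slc6a4, the serotonin transporter, was at 4.29, 8.32 and 11.2 CPM in J17a and 1.30, 2.84 and 3.96 CPM in Wild type (log2 fold change 1.57, SE 0.46). Eps8l1, an adaptor of actin regulation, was at 9.40, 8.21 and 4.80 CPM in J17a and 3.00, 3.58 and 1.35 CPM in Wild type (1.48, SE 0.75). Serpinb1b, a serine protease inhibitor gene, was at 4.02, 4.66 and 7.03 CPM in J17a and 3.21, 2.16 and 2.62 CPM in Wild type (0.98, SE 0.35). In Slc6a4 the spread within J17a was wide, and the lowest J17a library was close to the highest Wild type library.

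Lars2, the mitochondrial leucyl-tRNA synthetase, and Malat1, a nuclear long noncoding RNA, were abundant genes in that group. Lars2 was at 189.7, 399 and 364 CPM in J17a and 149, 185 and 110 CPM in Wild type (log2 fold change 1.10, SE 0.34). Malat1 was at 1130, 2145 and 1403 CPM in J17a and 920, 642 and 926 CPM in Wild type (0.91, SE 0.35). The 45S ribosomal precursor Rn45s was at 6560, 18290 and 17320 CPM in J17a and 4487, 6658 and 3582 CPM in Wild type (1.52, SE 0.39), with overlapping groups. All 3 were higher in J17a replicates 2 and 3, whose titles carry the numbers 11 and 12, than in replicate 1, numbered 10. High levels were not particular to J17a. Rn45s averaged 39050 CPM in J17b, 25460 in J27a and 18990 in J27b, against 14060 in J17a. In J1 lf/lf and J2 lf/lf it averaged 3982 and 6268 CPM. In J17b, J27a and J27b, Lars2 averaged 737.5, 438 and 366 CPM, against 318 in J17a. Malat1 averaged 3224, 2446 and 1473 CPM there, against 1559 in J17a. J17a is the only group with title numbers both above 10 and not above it. A title number above 10 as a term in the fit therefore leaves J17a replicate 1 alone against Wild type. The log2 fold changes were then 0.36 for Lars2, 0.45 for Malat1 and 0.42 for Rn45s. What the title number stands for is not stated, and its part in the J17a differences was not tested.

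Among genes with separated groups and a mean log2 CPM of at least 1, the largest negative differences were also at low levels. Pituitary genes had larger ones (Lhb -6.82, Tshb -5.91 and Pomc -6.27), and they lie below that level or overlap. Without Wild type replicate 2 they were at -2.56, -2.82 and 0.67. In the other J17a and Wild type libraries Lhb reached at most 0.36 CPM and Tshb 0.17 CPM. H2-Eb1, a chain of the class II antigen-presenting molecule, was at 2.16, 1.54 and 1.96 CPM in J17a and 3.11, 4.61 and 4.12 CPM in Wild type (log2 fold change -1.06, SE 0.35). Antxr2, an extracellular matrix and anthrax toxin receptor, was at 1.69, 0.89 and 1.41 CPM in J17a and 2.90, 2.63 and 2.78 CPM in Wild type (-1.05, SE 0.33). Cidea, a lipid droplet protein, was at 2.16, 1.44 and 2.54 CPM in J17a and 3.17, 3.46 and 3.25 CPM in Wild type (-0.69, SE 0.22). Wild type libraries were tight in Antxr2 and Cidea. Nrk, a germinal centre kinase, was at -0.84, and Fgf7, a fibroblast growth factor, at -0.82. Both rested on Wild type replicate 3, at 11.3 CPM for Nrk and 6.58 CPM for Fgf7, and without it they were at -0.39 and -0.22. Alpk2 (-0.73), Sema3b, a secreted semaphorin (-0.65), and the predicted genes C330027C09Rik (-0.75, and -0.45 without Wild type replicate 3) and Gm14446 (-0.74) completed the group.

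Immediate early genes, which neurons switch on with activity, gave no call. Of 18, 0 had an unadjusted p under 0.05, against 4.39% of all genes. The log2 fold change was positive in 15 of 18, with a median of 0.28, and 5 of 18 lay inside 1.5-fold. Of the 18, 13 were from 8 to 64 CPM, where 93.7% of all genes lay inside 1.5-fold. All J17a libraries were above all Wild type libraries in 2 of them, against 3.47% of all genes. Arc, which acts at synapses, was at 139, 137 and 175 CPM in J17a and 88.3, 121 and 66.0 CPM in Wild type (log2 fold change 0.71, 95% interval -0.06 to 1.48). Egr2 was at 5.38, 4.69 and 6.38 CPM in J17a and 3.31, 3.96 and 3.21 CPM in Wild type (0.65, -0.15 to 1.44). Fos was at 0.47, Egr1 at 0.39 (0.15 without Wild type replicate 3), Npas4 at 0.32 and Bdnf at -0.03, all with overlapping groups. Wild type replicate 3 was the lowest library for this list. Without it 12 of 18 were positive and the median was 0.06.

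Among the AP-1 and ATF factors, which bind DNA as dimers and include JNK substrates, 8 of 11 tested were positive. Their median was 0.17, and 5 of 11 lay inside 1.5-fold. Below 1 CPM, where 0% of all genes lay inside 1.5-fold, were 2 of the 11, Atf3 and Batf. Jun, the factor after which JNK is named, was at 56.2, 44.7 and 60.4 CPM in J17a and 68.4, 68.0 and 51.3 CPM in Wild type (log2 fold change -0.22, 95% interval -0.48 to 0.04). It was at -0.34 without Wild type replicate 3, when the groups no longer overlapped, and at -0.10 without J17a replicate 2. Fosl2 was at 44.3, 44.8 and 49.1 CPM in J17a and 39.3, 36.1 and 25.6 CPM in Wild type (0.45, SE 0.13, unadjusted p = 0.0024, edgeR adjusted p = 0.993). Fosl2 was without overlap and was at 0.29 without Wild type replicate 3. Atf2 was at -0.04 (-0.19 to 0.11) and Jund at 0.04 (-0.37 to 0.45).

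**Figure D4:**
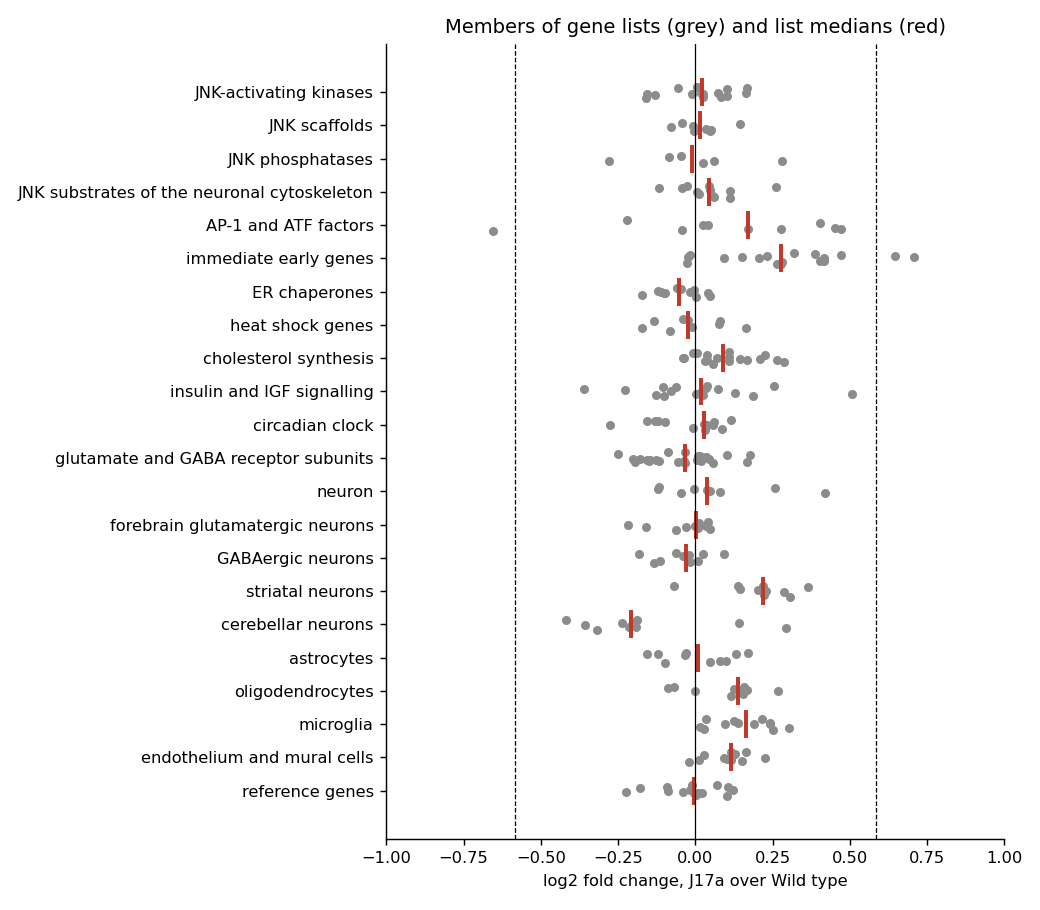
Log2 fold change of J17a over Wild type for members of 22 gene lists (grey points) with the list median (red bar) and dashed lines at 1.5-fold; 1 member lies beyond the axis. Most medians are close to 0, and the median is 0.28 for immediate early genes and -0.21 for cerebellar neuron genes.

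Metabolic and stress genes gave no call. These lists hold no gene below 8 CPM. Over all genes, 93.7% from 8 to 64 CPM and 98.1% above 64 CPM lay inside 1.5-fold. Of 18 cholesterol synthesis genes 15 were positive with a median log2 fold change of 0.09, and 17 lay inside 1.5-fold. Lss, the lanosterol synthase, was at 21.6, 21.2 and 21.3 CPM in J17a and 18.97, 20.7 and 13.6 CPM in Wild type (0.26, SE 0.12, and 0.11 without Wild type replicate 3). The groups were separated by a narrow margin. All 12 ER chaperones lay inside 1.5-fold, 3 of 12 were positive, and Hspa5, the chaperone BiP, was at -0.01 (-0.19 to 0.18). Of 9 heat shock genes 6 were inside 1.5-fold, with a median of -0.02. Hspa1a, Hspa1b and Hspb1, at -0.17, -0.02 and 0.16, were not. Of 18 genes of insulin and IGF signalling 16 were inside 1.5-fold, with Insr, the insulin receptor, at 0.00 (-0.13 to 0.14) and Igfbp5, an IGF-binding protein, at -0.23 (SE 0.09, and -0.14 without Wild type replicate 2). All 13 clock genes were inside 1.5-fold, and Nr1d1, which encodes REV-ERB alpha, had the lowest log2 fold change. Nr1d1 was at 139.7, 115 and 129 CPM in J17a and 157, 156 and 151 CPM in Wild type (-0.28, SE 0.08, unadjusted p = 0.00171, edgeR adjusted p = 0.993), and it overlaps Thra on the opposite strand. Its partners Arntl and Clock were at -0.16 and -0.13, and Dbp at 0.09.

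Glial and vascular marker genes gave no call. Of 12 microglial genes 12 were positive, with a median log2 fold change of 0.16. An unadjusted p under 0.05 was reached by 2, against 4.39% of all genes. Inside 1.5-fold lay 9 of the 12. In this list 9 genes were from 8 to 64 CPM, where the share inside over all genes was 93.7%. Tmem119, a microglial membrane protein, was at 19.3, 19.4 and 19.5 CPM in J17a and 17.98, 17.3 and 11.7 CPM in Wild type (0.30, SE 0.14). Ctss, a lysosomal protease, was at 0.24 (SE 0.10, and 0.15 without J17a replicate 2), Cx3cr1 at 0.09 (SE 0.08) and P2ry12 at 0.02 (SE 0.12). Without Wild type replicate 3, Tmem119 was at 0.14 and 9 of 12 were positive. Of 11 endothelial and mural genes 10 were positive with a median of 0.11, and of 10 astrocyte genes 5 were, with a median of 0.01. Of 10 oligodendrocyte genes 7 were positive with a median of 0.14, and Opalin, Mal and Cldn11 were at -0.09, -0.07 and -0.00. Mbp, a major myelin protein with the highest log2 fold change of that list, was at 2661, 3660 and 3625 CPM in J17a and 2552, 3336 and 2379 CPM in Wild type, overlapping (0.27, 95% interval -0.01 to 0.55). It was at 0.17 without Wild type replicate 3, 0.40 without J17a replicate 1 and 0.43 without Wild type replicate 2. In bulk tissue, fewer cells of a type and less RNA per cell cannot be told apart.

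Markers of brain regions set single libraries apart more than they set the genotypes apart. Striatal neuron genes were positive in 9 of 10 with a median log2 fold change of 0.22, and J17a replicate 1 decided this. Drd1, a dopamine receptor, was at 56.3, 32.2 and 27.3 CPM in J17a and 29.3, 29.7 and 31.0 CPM in Wild type. Without J17a replicate 1, only 2 of 10 were positive and the median was -0.16. Cerebellar neuron genes were positive in 2 of 10 with a median of -0.21, yet were higher in J17a replicate 1 than in the other two J17a libraries. The Purkinje cell gene Pcp2 was at 56.7, 20.7 and 26.3 CPM in J17a and 38.1, 43.6 and 36.5 CPM in Wild type. Without J17a replicate 1, 0 of 10 were positive and the median was -0.63, and with J17a replicate 2 and Wild type replicate 3 left out 7 of 10 were positive.

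Transcripts of the hindbrain and of brainstem neurons were another such group, listed after their values were seen. Hox genes, which pattern the hindbrain and spinal cord, summed to 4.45, 20.5 and 82.7 TPM over 16 genes in J17a and 18.6, 2.96 and 7.24 TPM in Wild type. J17a replicate 3 was the highest, and J17a replicate 1 was the second lowest. All 16 were positive with a median log2 fold change of 1.70, which was 0.49 without J17a replicate 3. In 1 of 16 all J17a libraries lay above all Wild type libraries, against 3.47% of all genes. Tph2, which makes serotonin, was at 6.48, 18.3 and 18.3 CPM in J17a and 3.31, 6.80 and 11.9 CPM in Wild type (0.98, 95% interval -0.19 to 2.15). Of 8 serotonergic genes 6 were positive, with a median of 0.39. J17a replicates 2 and 3 were the highest in Tph2 as they were in Slc6a4. Slc18a3, by contrast, was highest in J17a replicates 1 and 3. The part of these regional levels in the differences of Slc18a3, Slc5a7, Chodl and Slc6a4 was not tested.

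**Figure D5:**
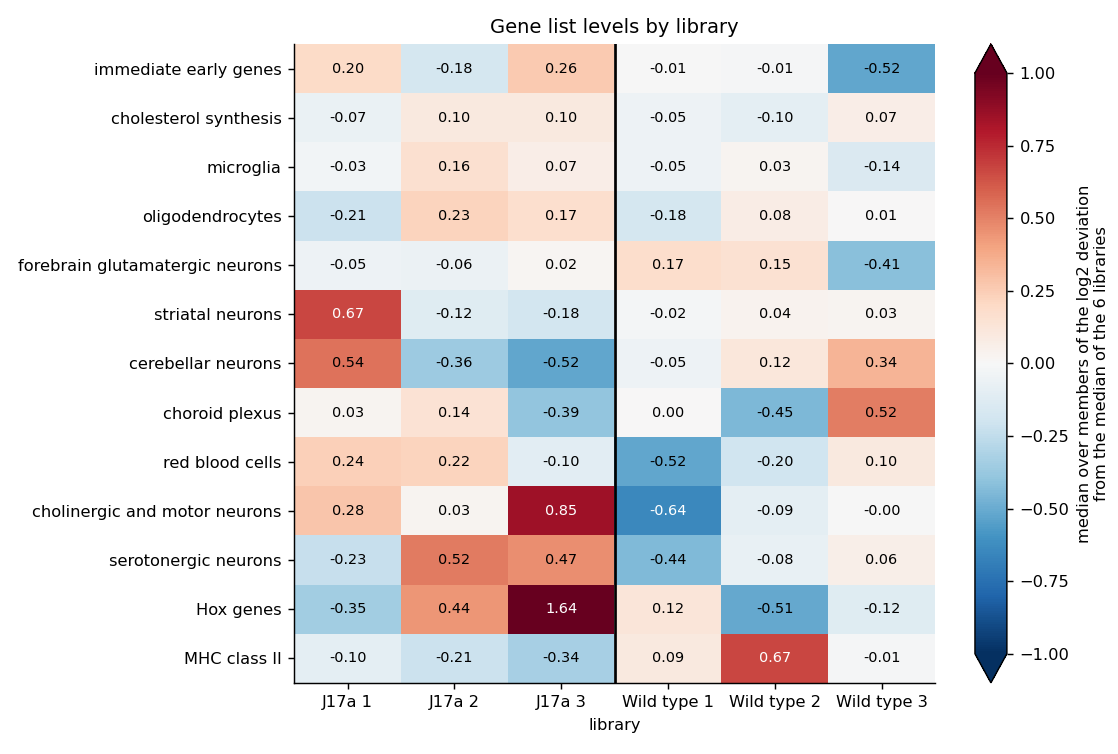
Median over list members of the log2 deviation from the 6-library median, for 13 gene lists (down) in J17a (left of the line) and Wild type (right) libraries; the 4 lowest lists were added after values were seen. Single libraries stand out, such as J17a replicate 1 in striatal neuron genes (0.67), J17a replicate 3 in Hox genes (1.64) and Wild type replicate 3 in immediate early genes (-0.52).

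Genes that stayed level made up most of the transcriptome. A 95% interval inside a 1.5-fold change was reached by 11216 of 16063 genes, and inside a 1.2-fold change by 4270 (26.6%). The share inside 1.5-fold was 98.1% above 64 CPM, 93.7% from 8 to 64 CPM, 30.9% from 1 to 8 CPM and 0% below 1 CPM, where the median interval reached 1.42 either side on the log2 scale. Below 1 CPM most differences of under 2-fold were thus not detectable at this depth. Of the 479 genes with an estimate beyond 2-fold, 418 lay below 1 CPM and 3 above 64 CPM.

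The narrowest intervals belonged to abundant housekeeping and neuronal genes. Hsp90ab1, a cytosolic chaperone, was at 1662, 1624 and 1686 CPM in J17a and 1734, 1658 and 1708 CPM in Wild type (log2 fold change -0.04, 95% interval -0.14 to 0.06). App, the amyloid precursor, was at 2001, 1919 and 2030.0 CPM in J17a and 2094, 2071 and 2143 CPM in Wild type (-0.08, -0.19 to 0.02). Atp5b, a subunit of the ATP synthase, was at 1187, 1173 and 1198 CPM in J17a and 1209, 1221 and 1230.0 CPM in Wild type (-0.04, -0.14 to 0.06). In App, Atp5b, Gnao1 and Gnb1 all J17a libraries lay below all Wild type libraries, with intervals that spanned 0. Eef1a1, an elongation factor, was at 0.01 (-0.09 to 0.12), the G protein subunits Gnao1 and Gnb1 at -0.07 (-0.17 to 0.04) and -0.05 (-0.16 to 0.06), and Ctsb, a lysosomal protease, at -0.04 (-0.15 to 0.07). The calcium-binding protein gene Sdf4 was at -0.00 (-0.11 to 0.11), the synaptotagmin gene Syt11 at 0.01 (-0.10 to 0.12), and Rpl3, a ribosomal protein, at 0.06 (-0.05 to 0.16).

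All 15 genes commonly used as references lay inside 1.5-fold. Gapdh was at -0.01 (95% interval -0.15 to 0.13), Actb at -0.09 (-0.20 to 0.03), Ppia at 0.02 (-0.10 to 0.14), Hprt at 0.00 (-0.17 to 0.18) and Polr2a at -0.02 (-0.17 to 0.13). The widest interval was that of Tbp (0.07, -0.20 to 0.34) and the lowest log2 fold change that of B2m (-0.22, -0.47 to 0.02), and B2m was highest in Wild type replicate 3, without which it was at 0.01. Abundant brain transcripts were also close, with Snap25, a synaptic vesicle fusion protein, at 3077 TPM in J17a and 3204 TPM in Wild type, Apoe, the main lipid carrier, at 3276 and 3307 TPM, and Ckb, the brain creatine kinase, at 3086 and 3245 TPM. All 26 glutamate and GABA receptor subunits lay inside 1.5-fold. Neither this list nor that of the references holds a gene below 8 CPM. Over all genes the share inside was 93.7% from 8 to 64 CPM and 98.1% above 64 CPM. The AMPA receptor subunits Gria1 and Gria2 were at -0.06 (-0.22 to 0.11) and -0.03 (-0.19 to 0.12), and the NMDA receptor subunits Grin1 and Grin2b at -0.03 (-0.22 to 0.16) and 0.18 (-0.08 to 0.44).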

How the data were processed

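DNase-treated total RNA of mouse brain was enriched for poly(A) transcripts and sequenced as paired-end 150-base reads on a NovaSeq6000, per the labels. The authors deposited estimated counts per gene made with RSEM after cutadapt on build mm10, per the submitters' processing notes. The deposited TPM values (abundance per length, scaled to one total per library) come from the same table of genes. The sources used here give no versions, annotation or strand setting, so overlapping and near-identical genes are uncertain. Of the estimated counts, 4.11% were not whole. After rounding, edgeR 4.0.16 under R 4.3.3 was used (filterByExpr, then TMM scaling, then robust glmQLFit and glmQLFTest) over all 20 libraries with a mean per group (biological coefficient of variation 0.12), two-sided, Benjamini-Hochberg adjusted over all genes. Called means an adjusted p under 0.05. CPM are counts scaled by library total and TMM factor, intervals are 95% Wald intervals from the fit, and groups that do not overlap have all 3 libraries on one side. The procedure was tested on simulated data.

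The comparison, gene lists and alternatives were chosen with earlier results of these data known. The lists of cholinergic and motor neuron, serotonergic, Hox, class II and metallothionein genes were added after values were seen. Named genes are those called by an alternative, the 12 of smallest p and the 10 largest differences each way without overlap (mean log2 CPM of at least 1), list members with an unadjusted p under 0.05, the JNK genes, Ide, Btaf1, the Rosa26 transcript and Rn45s, the 10 narrowest intervals, the reference genes and the 10 most abundant. Other list members were chosen after their values were seen. Positions are from GENCODE mouse M21 (mm10), which held 15328 of the tested genes. Alternatives were DESeq2 1.42.0, its size factors, no filter, only these 2 groups, the replicate number as a block, limma 3.58.1 on log2(TPM + 1) and log2(TPM + 0.1), Rn45s left out, the title number as a term, and each library left out, also for list members (added after seeing the data). No pair among the 6 J17a and Wild type libraries agreed within sampling noise, so each of these counted once. The other libraries were not compared in this way. Some genes that the rule names are not reported here.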

Additional observations from a re-analysis of the deposited data

How the results depend on the processing

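The count of 0 called genes became 1 with the DESeq2 Wald test and ranged from 0 to 1 when each library was left out, with 1 only without J17a replicate 2 (Slc18a3 in both cases). It was also 1 with J17a replicate 2 and Wild type replicate 3 left out together (Slc5a7), an alternative chosen after seeing the data, as was a GC correction, which gave 0. It stayed at 0 in the other alternatives. The 705 genes at an unadjusted p under 0.05 became 261 with only these 2 groups in the fit and 1173, 1202 and 1109 without Wild type replicates 1, 2 and 3. With the replicate number as a block 0 genes were called, Mapk8 was at -0.16 and 11168 genes lay inside 1.5-fold. Same-numbered libraries had deviations correlated at 0.11, -0.36 and -0.19. The highest correlation, 0.44, was between J17a replicate 2 and Wild type replicate 3, which had GC trends of the same sign. Such trends could hide a pairing, so whether the replicate numbers pair the samples cannot be told. A term for the title number leaves J17a replicate 1 alone against Wild type, so no count inside 1.5-fold is given for it. With limma on log2(TPM + 1), 13411 genes lay inside 1.5-fold. Leaving out each library gave -8.28 to 0.67 for Pomc and -11.97 to 1.77 for Cga, both pituitary genes that were positive only without Wild type replicate 2. The summed pituitary level there is given with the libraries. With 3 libraries a group, the median 95% interval reached 0.27 either side on the log2 scale over all genes and 1.42 below 1 CPM.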

Other observations

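Values of further members of the lists were as follows. The class II genes were listed after their values were seen: 0 of 5 were positive with a median log2 fold change of -0.57, Cd74, the invariant chain, was at 7.91, 6.40 and 7.10 CPM in J17a and 9.35, 15.3 and 6.98 CPM in Wild type, and Wild type replicate 2 was the highest for the list. Without that library Cd74 was at -0.19, against -0.57 with it. Mt3, a brain metallothionein, was at 124, 112 and 151 CPM in J17a and 168, 168 and 253 CPM in Wild type, without overlap (-0.61, 95% interval -1.05 to -0.16, edgeR adjusted p = 0.993, and -0.38 without Wild type replicate 3), and Mt1 was at -0.28 (-0.54 to -0.02), or -0.11 without Wild type replicate 3. All 3 tested metallothioneins were negative, with a median of -0.28. Zbtb16, a glucocorticoid-responsive transcription factor, was at 39.8, 48.7 and 48.8 CPM in J17a and 63.5, 66.8 and 47.5 CPM in Wild type, with Wild type replicate 3 among J17a (-0.37, SE 0.13). The neurofilament genes Nefm and Nefl, which overlap on opposite strands, were at 0.42 (SE 0.14) and 0.26 (SE 0.09, and 0.17 without J17a replicate 3), with Nefm at 432, 487 and 567 CPM in J17a and 374, 431 and 306 CPM in Wild type, a narrow separation. The Rosa26 transcript Gt(ROSA)26Sor was at 6.18, 6.61 and 5.04 CPM in J17a and 5.70, 3.99 and 5.91 CPM in Wild type, overlapping (0.20, 95% interval -0.19 to 0.58). Pomc, the precursor of pituitary and hypothalamic peptides, was at 9.11, 0.38 and 1.44 CPM in J17a and 1.84, 843 and 2.81 CPM in Wild type, so a single library, Wild type replicate 2, held nearly all of it.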
